A study of Mus musculus with 48 samples.

Results

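Keratins 7, 8, 18 and 19 (Krt7, Krt8, Krt18, Krt19), vimentin (Vim) and the trophectoderm transcription factors Cdx2, Gata3, Eomes, Tfap2a and Tfap2c were followed cell by cell in the inner cell mass (ICM) of the mouse blastocyst. These 10 genes were chosen by name, as the intermediate filaments of early epithelia and as regulators of the lineage that surrounds the ICM, out of 49671 genes in the count data, of which 21943 were counted in 1 cell or more. The 48 cells came from 3 E3.75 blastocysts with the PDGFRa::H2B-GFP/+ reporter (a histone-GFP fusion targeted to the Pdgfra locus), bred from intercrosses with F1 hybrids of C57BL/6J and CBA/J by natural mating. The trophectoderm had been removed by immunosurgery, in which antibody and complement lyse the outer cells, before the ICMs were dissociated. Libraries of single cells were made by Smart-seq2, which amplifies full-length cDNA and adds no molecular identifiers. By the study's own dendrogram of these cells, 25 cells were on the branch of presumptive epiblast (pEPI) and 23 on that of presumptive primitive endoderm (pPrE). All cells share the same genotype as labelled, and none is treated.

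The labels do not say which embryo a cell came from, so the 48 cells are 1 sample. Cells are not replicates, and no test was made between the branches, which were themselves built from the expression of these cells. SDs describe the spread between cells, shares of cells carry exact binomial 95% intervals that treat cells as independent draws, and intervals of log2 ratios are approximate and cover counting error only. The total of counts per cell was between 1718970 and 7342785. Levels are given as FPKM (fragments per kilobase of exon, scaled to the library size), with the union of all annotated exons of a gene as its length. Comparison between genes depends on that length, which was 7049 bases for Krt7, 1958 for Krt8 and 1437 for Krt18. A gene was called detected at 1 FPKM or more, a minimum that takes more counts for a longer union. Counts of 4 Y-linked genes reached 100 in 29 cells (17 pEPI and 12 pPrE) and at most 1 in the other 19 (8 pEPI and 11 pPrE). These kinds of cells lay in unbroken runs of wells, from A1 to C2 with Y-linked counts, from C3 to D8 without, from E1 to F3 with and from F4 to F8 without. The embryo, the sex and the well of a cell cannot be told apart here. Values within each kind therefore stand beside the branch ratios of Krt8, Krt18, Vim, Eomes and Tfap2c. Branch ratios of all other genes are pooled over both kinds of cells and were not split in this way. Lineage markers are given to describe the branches, and are not an independent check because the branches were built from these same cells. Nanog, a transcription factor of the epiblast, was lower in pPrE (log2 ratio -2.85), and Gata6, Sox17 and Gata4, transcription factors of the primitive endoderm, had 1.35, 3.31 and 3.33. Pou5f1, which marks the whole ICM, was detected in 48 of 48 cells at a mean of 358 FPKM.

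Keratins build intermediate filaments from obligate pairs of a type II chain and a type I chain, and the pair of keratin 8 (type II) and keratin 18 (type I) is the first to appear in the embryo, where it is best known from the trophectoderm. Keratin 7 (type II) and keratin 19 (type I) are further chains of simple epithelia. Vimentin is a type III filament protein that assembles without keratins, known from mesenchymal cells and from parietal endoderm. Cdx2 and Gata3 act downstream of Tead4 and Hippo signalling to set up the trophectoderm, Eomes is needed in trophoblast and later in visceral endoderm, and Tfap2a and Tfap2c encode the AP-2 factors alpha and gamma.

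Krt8 and Krt18 lie next to each other on chromosome 15 of GRCm38, transcribed away from each other from starts 23698 bases apart, and Krt7 lies 566 kb from Krt8 on the same chromosome. Of the 10 genes, 8 had an entry in the RefSeq promoter table (GRCm38.p6). The 250 bases before each start were searched on both strands for the AP-2 motif GCCNNNGGC, the TEAD motif GGAATG, the GATA motif AGATAA and the TATA box TATAAA, none of which contains another. The upstream sequences of Krt8 and Krt18 are shown because these partners were detected in very different numbers of cells. Each is on the strand of the gene, 5′ to 3′, and was ended where the GENCODE gene begins (chr15:102004483-102004592, minus strand, and chr15:102027966-102028179, plus strand). Capitals mark the motif matches.
Krt8: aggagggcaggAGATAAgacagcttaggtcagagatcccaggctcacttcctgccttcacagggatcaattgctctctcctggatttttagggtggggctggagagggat
Krt18: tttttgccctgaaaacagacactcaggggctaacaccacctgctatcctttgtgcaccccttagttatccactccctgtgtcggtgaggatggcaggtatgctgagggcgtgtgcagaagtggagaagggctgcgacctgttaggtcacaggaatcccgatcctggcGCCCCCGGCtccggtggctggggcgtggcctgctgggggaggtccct
Krt8 had a GATA match 239 to 234 bases before its RefSeq start and no AP-2 match, and Krt18 had an AP-2 match 83 to 75 bases before its start. An AP-2 match was also found 20 to 12 bases before the start of Vim, together with a TATA box at 32 to 27 bases. In the same window Krt7 held 2 AP-2 matches, Gata3 held 3 and Cdx2 held 1, whereas Eomes and Tfap2a held no match to any of the 4 motifs. Over all 32851 promoters of the same length, 13.7% held the AP-2 motif, 12.6% the TEAD motif, 9.99% the GATA motif and 12.4% the TATA box, so that such matches are common.

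By mean FPKM, Krt8 was the highest of the 10 genes and Krt7 the lowest. Their order by mean level over the 48 cells was Krt8 (34.3 FPKM), Tfap2c (13.6), Vim (4.01), Eomes (3.21), Krt18 (2.42), Krt19 (1.92), Gata3 (0.575), Cdx2 (0.216), Tfap2a (0.0913) and Krt7 (0.0438). For each gene the SD between cells was larger than its mean, and neighbours in this order differed by less than the SD between cells of the higher one. Among all genes with a count, the mean of Krt8 was at the percentile of 92.3, that of Tfap2c at 84.3 and those of Cdx2, Tfap2a and Krt7 at 29.9, 19.6 and 13.2. The heat map of all 48 cells shows the row of Krt8 filled nearly throughout, that of Tfap2c filled on the pEPI side and the rest sparse.

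**Figure D1:**
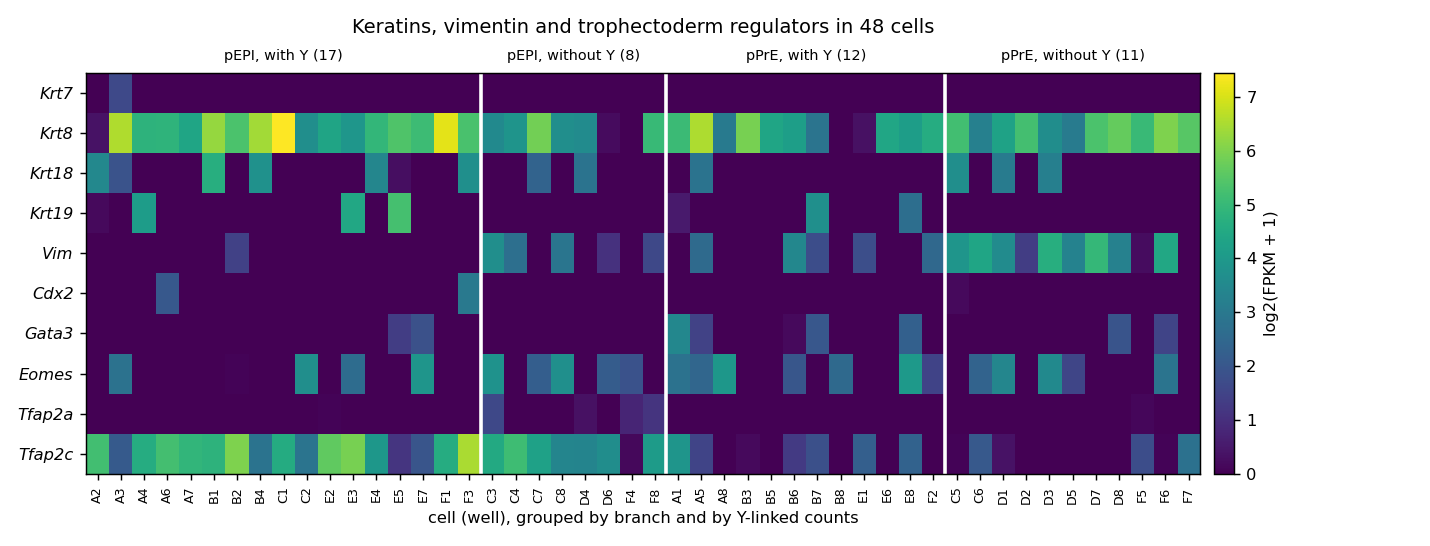
Each column is 1 of the 48 cells, named by its well and grouped by branch and by the presence of Y-linked counts, and each row is a gene, with colour giving log2(FPKM + 1). Krt8 is detected in 43 cells and Tfap2c in 33, whereas Krt7, Cdx2 and Tfap2a each reach 1 FPKM in only 1 or 2 cells. Vim is densest in the pPrE cells without Y-linked counts.

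Of the 10 genes, 5 (Krt8, Krt18, Vim, Eomes and Tfap2c) had a mean log2(FPKM + 1) above 0.5, the level filter for a ratio between the branches. Across all 11193 genes above that filter, 13.2% were past 2-fold between the branches, 5.43% higher and 7.72% lower in pPrE, and the median log2 ratio was 0.01. Vim was past 2-fold higher in pPrE, Krt18 and Tfap2c were past 2-fold lower, and Krt8 and Eomes were within 2-fold. The other 5 genes were too sparse for a ratio and are given cell by cell. The plot of levels by branch shows that both branches held cells at 0 for every gene except Tfap2c in pEPI.

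**Figure D2:**
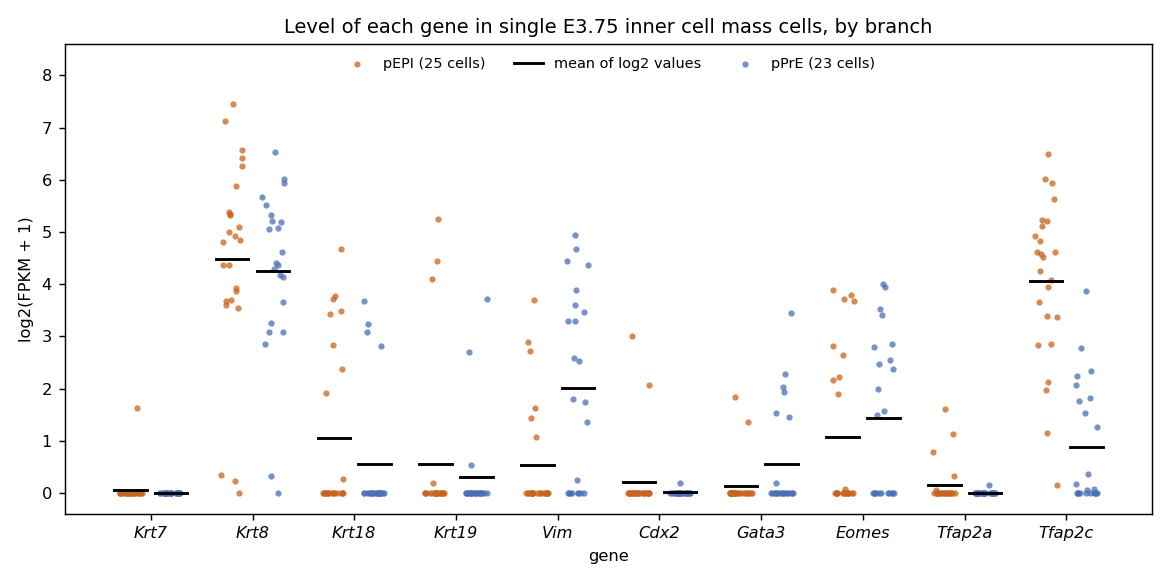
Points are single cells (25 pEPI in orange, 23 pPrE in blue), the vertical axis is log2(FPKM + 1), points are spread sideways at random, and black lines are the means of the log2 values. Tfap2c is shifted down and Vim up in pPrE, whereas the clouds of Krt8 and Eomes overlap over most of their range.

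Krt8 (ENSMUSG00000049382, chromosome 15, 101996698 to 102004482) was detected in 43 of 48 cells (89.6%, 77.3% to 96.5%) and had at least 1 count in 46. Its level ran from 0 to 173 FPKM with a median of 25.4 and a mean of 34.3 ± 35.2 (SD, n = 48 cells), and the highest cells were C1 (173), F1 (139) and A3 (94.1), all pEPI. Detected cells started at 6.27 FPKM, so the 43 cells stood clear of the 5 others, A2, B8, D6, E1 and F4, which had at most 0.276 FPKM. In pEPI it was detected in 22 of 25 cells, from 0 to 173 FPKM with a median of 27.8 and a mean of 40.2 ± 43.3 (SD, n = 25 cells). In pPrE it was detected in 21 of 23 cells, from 0 to 91.5 FPKM with a median of 20.2 and a mean of 27.95 ± 22.7 (SD, n = 23 cells). The branches overlapped over the whole range of pPrE, and the log2 ratio of pPrE over pEPI was -0.52 (-0.57 to -0.47), a difference smaller than the SD of either branch. The log2 ratio was -1.05 in cells with Y-linked counts and 0.89 in those without, so the 2 kinds of cells pointed in opposite directions, and without the cell in C1 it was -0.31.

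Krt8 took 80.3% of all 16546 counts on keratin genes and 78.4% of the summed keratin FPKM. Of 53 keratin genes in the data, 10 had any count and 5 had one in 5 or more cells, namely Krt8, Krt10, Krt13, Krt18 and Krt19. Krt7 and Krt8 were the only type II keratins among the 10 keratin genes with a count. A processed pseudogene of Krt8 on chromosome 7, Krt8-ps, is 98.6% identical over 941 bases and was given 154 counts in 36 cells, at most 17 in a cell, against 13281 counts on Krt8, so reads of Krt8 may be split between them. A further RNA gene, Gm36026, overlaps the start of Krt8 by 102 bases and was not analysed here.

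Krt7 (ENSMUSG00000023039, chromosome 15, 101411043 to 101430313) had counts in 1 cell, A3, at 2.10 FPKM from 41 counts. A3 is a pEPI cell with the third highest level of Krt8 and with Krt18 at 2.76 FPKM, and it was the 1 cell with 3 of the 4 keratins.

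Krt18 (ENSMUSG00000023043, chromosome 15, 102028180 to 102032027) was detected in 12 of 48 cells (25%, 13.6% to 39.6%), although its partner was detected in 43. Where detected, it stood between 2.76 and 24.6 FPKM, with a median of 9.07, and E5 with a single count was the only other cell in which it was seen. The highest cells were B1 (24.6), B4 (12.6) and F3 (12.1). It was detected in 8 of 25 pEPI cells, with a mean of 3.30 ± 6.12 FPKM, and in 4 of 23 pPrE cells, with 1.47 ± 3.39 FPKM (SD, n = 23 cells). The log2 ratio of pPrE over pEPI was -1.17 (-1.43 to -0.91). It rested on few cells, since without B1 it was -0.72, without the 8 wells of letter B -0.14 and without those of letter C -1.98. In cells with Y-linked counts it was -3.07 and in cells without them it turned to 0.96. The median total count was 2947482 in cells with Krt18 and 4294844 in the others. After every cell had been thinned to 1718970 counts, Krt18 was still detected in 12 cells and Krt8 in 43. Neither value measures loss of Krt18 RNA at capture, which was not tested. A pseudogene on chromosome 13, Gm5200, is 90.5% identical to Krt18 over 1267 bases and was not analysed here.

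Krt8 and Krt18 were detected together in 11 of 48 cells (22.9%, 12.03% to 37.3%), 7 pEPI and 4 pPrE. Krt8 was at the higher level in 11 of these 11 cells, by between 1.38-fold in D3 and 34.03-fold in A3, with a median of 3.09-fold. Krt18 without Krt8 was found in A2, at 10.1 FPKM. The median level of Krt8 was 37.2 FPKM in the 12 cells with Krt18 and 19.95 in the 36 cells without, and the ranges overlapped, from 0.276 to 94.1 and from 0 to 173. Spearman's rho of Krt8 with Krt18 over the 48 cells was 0.25, a description of cells that share libraries and depth.

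Krt19 (ENSMUSG00000020911, chromosome 11, 100140810 to 100148665) was detected in 5 of 48 cells (10.4%, 3.47% to 22.7%). The 3 pEPI cells were E5 at 37.1, E3 at 20.9 and A4 at 16.2 FPKM, and the 2 pPrE cells were B7 at 12.1 and E8 at 5.50. E5 alone held 40.2% of its summed FPKM. All 5 cells had Krt8 and Tfap2c, none had Krt18, and 3 of them (B7, E5 and E8) had Gata3. The products of shares give 4.48 cells with Krt8, 3.44 with Tfap2c and 0.833 with Gata3. All 659 counts of Krt19 were in cells with Y-linked counts, and the 19 cells without them had no count. Krt18 and Krt19 were not detected in the same cell (0 of 48, exact upper limit 7.40%), and the product of their shares gives only 1.25 cells.

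Krt8 without either Krt18 or Krt19 was found in 27 cells (56.2%, 41.2% to 70.5%), 12 pEPI and 15 pPrE. Other type I keratins were present in part of them. Krt10, a keratin of stratified epidermis, was detected in 27 cells at a mean of 2.08 FPKM, and Krt13, a keratin of stratified mucosa, in 8 cells at a mean of 2.45 FPKM, 7 of them pPrE. Over 8 type I keratins (Krt10, Krt13, Krt17, Krt18, Krt19, Krt23, Krt28 and Krt42), a set put together after the values were seen, 33 cells had Krt8 with a possible partner and 10 cells (20.8%, 10.5% to 34.99%) had Krt8 with none of them at 1 FPKM. Those 10 cells, 5 of each branch, included C1 with the highest Krt8 level of all.

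Vim (ENSMUSG00000026728, chromosome 2, 13573927 to 13582826) was detected in 20 of 48 cells (41.7%, 27.6% to 56.8%), 14 of 23 pPrE cells (60.9%, 38.5% to 80.3%) and 6 of 25 pEPI cells (24%, 9.36% to 45.1%). In pPrE it ran from 0 to 29.8 FPKM with a median of 2.48 and a mean of 7.12 ± 8.998 (SD, n = 23 cells), and the highest cells were D7 (29.8), D3 (24.6) and F6 (20.9). In pEPI it ran from 0 to 11.9 FPKM with a median of 0 and a mean of 1.15 ± 2.80 (SD, n = 25 cells). The highest pEPI cell, C3, stood above most pPrE cells, and the pPrE cell was the higher one in 73.7% of the pairs that can be drawn from both branches, with ties counted as 0.5. The log2 ratio of pPrE over pEPI was 2.63 (2.51 to 2.76), the difference of the means was larger than the SD of pEPI but smaller than that of pPrE, and 1.67% of the genes above the filter had a ratio as large in either direction.

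The level of Vim also went with the Y-linked counts, for which 12.9% of genes were past 2-fold, 6.82% higher and 6.09% lower in cells without them. Of the 5 genes above the filter, Vim was past 2-fold higher in those cells and Tfap2c past 2-fold lower. Vim was detected in 14 of 19 cells without Y-linked counts, with a mean of 8.75 ± 9.29 FPKM, and in 6 of 29 cells with them, with 0.904 ± 2.22 FPKM. The log2 ratio of cells without over cells with Y-linked counts was 3.28 (3.14 to 3.41), larger than that between the branches. Taken by both, Vim was detected in 1 of 17 pEPI cells with Y-linked counts, 5 of 8 pEPI cells without, 5 of 12 pPrE cells with and 9 of 11 pPrE cells without, with means of 0.0993, 3.37, 2.04 and 12.7 FPKM. The branch ratio in log2 was 4.36 with Y-linked counts, a value that rests on 1 pEPI cell (B2, 37 counts), and 1.91 without them. The pooled log2 ratio of 2.63 lay between these. The branches differ in their mix, with 8 of 25 pEPI cells and 11 of 23 pPrE cells without Y-linked counts. By runs of wells, Vim was detected in 4 of 18 cells from A1 to C2, 12 of 14 from C3 to D8, 2 of 11 from E1 to F3 and 2 of 5 from F4 to F8. Without the 8 wells of letter C the branch ratio was 4.60 and without those of letter D 1.95.

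**Figure D3:**
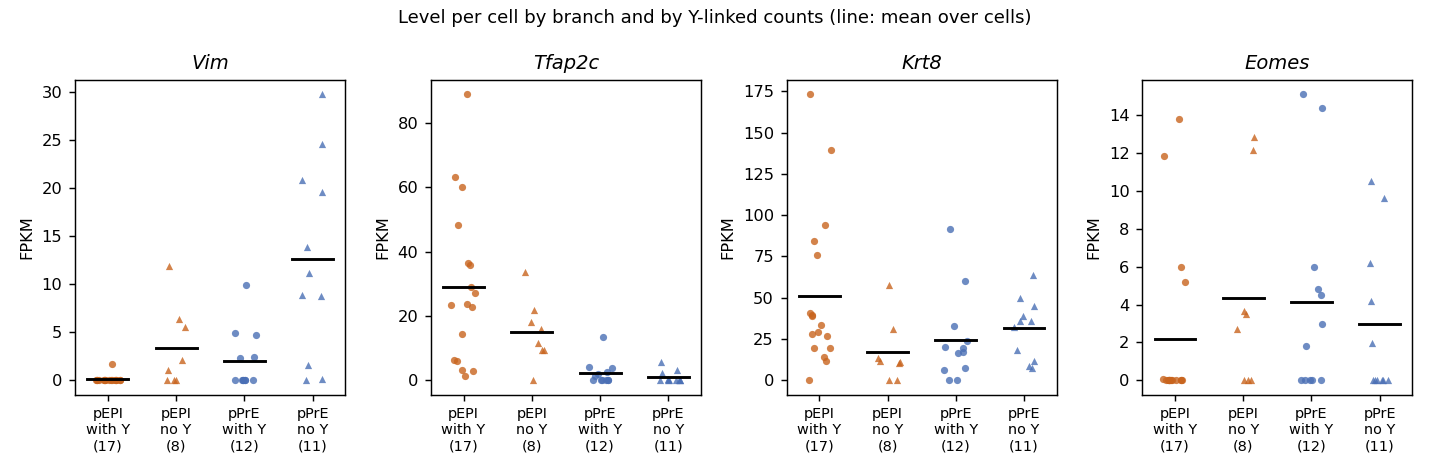
FPKM of Vim, Tfap2c, Krt8 and Eomes in single cells, split by branch and by Y-linked counts (number of cells in brackets), with circles for cells with Y-linked counts, triangles for cells without, and a line at the mean. Vim is highest in pPrE cells without Y-linked counts (mean 12.7) and nearly absent from pEPI cells with them (mean 0.0993), whereas Tfap2c is higher in pEPI in both kinds of cells.

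Vim was detected together with Krt8 in 18 of its 20 cells, near the 17.9 given by the product of the 2 shares. The 2 exceptions were D6 and E1. Only 5 cells, all pPrE (A5, B7, C5, D1 and D3), had Vim together with Krt18 or Krt19. Vim was found with Krt18 in 4 cells and with Krt19 in 1, where the products of shares give 5 and 2.08. Neither Krt8 nor Vim was detected in A2, B8 and F4. Because vimentin is common in other cells of a mouse, 12 marker genes of mesenchyme, endothelium and blood were looked up. Of these, 7 had no count in any cell, namely Col1a1, Col1a2, Col3a1, Prrx1, Acta2, Ptprc and Hbb-bs. Twist1 was detected in 5 cells, Zeb1 in 3 and Snai2 in 2. Snai1, a transcription factor of mesenchymal transition, was detected in 40 cells with a branch log2 ratio of 2.50, and Pecam1, an adhesion molecule also found in the ICM, in 45 cells with -1.26. The summed level of the 12 genes ran from 17.2 to 82.9 FPKM in pEPI and from 3.19 to 250 in pPrE. Snai1 and Pecam1 had the highest means among the 12 (37.9 and 18.8 FPKM).

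Cdx2 (ENSMUSG00000029646, chromosome 5, 147300805 to 147307270) was detected in 2 of 48 cells (4.17%, 0.509% to 14.3%), both pEPI cells with Y-linked counts. These were F3 at 7.04 FPKM from 31 counts and A6 at 3.18 FPKM from 27 counts, and C5 had 2 further counts. F3 was also the cell with the highest Tfap2c (89.0 FPKM) and had Krt8 at 38.8 and Krt18 at 12.1 FPKM, whereas A6 had Krt8 at 27.8 and neither Krt18 nor Krt19. Neither cell had Gata3 or Eomes, for which the products of shares with Cdx2 give 0.333 and 0.875 cells.

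Gata3 (ENSMUSG00000015619, chromosome 2, 9857078 to 9890034) was detected in 8 of 48 cells (16.7%, 7.48% to 30.2%), 6 pPrE and 2 pEPI. The level was highest in A1 at 9.91 FPKM, followed by E8 at 3.88, B7 at 3.09 and D8 at 2.80, and the other 4 cells were between 1.56 and 2.57. A1 alone held 35.9% of the summed FPKM. All 8 cells had Krt8, 6 had Tfap2c, 5 had Eomes and 1 had Krt18, where the products of shares give 7.17, 5.5, 3.5 and 2. No cell had both Cdx2 and Gata3 (0 of 48, exact upper limit 7.40%), and the product of their shares gives only 0.333 cells.

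Tfap2a (ENSMUSG00000021359, chromosome 13, 40715302 to 40738376) was detected in C3 at 2.06 and F8 at 1.19 FPKM, both pEPI cells without Y-linked counts, and F4 was just below the minimum at 0.722. Of its 82 counts, 81 were in cells without Y-linked counts. Antisense genes overlap Tfap2a, and one of them, Gm26688, had 17 counts in 2 cells. The Smart-seq2 and Nextera protocol does not mark strand, so reads from a gene and its antisense partner cannot be told apart. The same holds for Gm33460 beside Eomes (39 counts in 1 cell) and Gm13256 beside Gata3 (4 counts).

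Eomes (ENSMUSG00000032446, chromosome 9, 118478212 to 118486132) was detected in 21 of 48 cells (43.8%, 29.5% to 58.8%), 9 of 25 pEPI and 12 of 23 pPrE. In pEPI it ran from 0 to 13.8 FPKM with a median of 0 and a mean of 2.87 ± 4.71 (SD, n = 25 cells), and in pPrE from 0 to 15.1 with a median of 1.80 and a mean of 3.57 ± 4.75 (SD, n = 23 cells). The branches overlapped over nearly the whole range, with E8 (15.1) and A8 (14.4) of pPrE and E7 (13.8) of pEPI highest. The log2 ratio was 0.31 (0.20 to 0.43), a difference smaller than the SD of either branch. With Y-linked counts it was 0.93, and without them -0.56, in the opposite direction. Without the 8 wells of letter C it was 1.17.

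Tfap2c (ENSMUSG00000028640, chromosome 2, 172549593 to 172558622) was detected in 24 of 25 pEPI cells (96%, 79.6% to 99.9%) and in 9 of 23 pPrE cells (39.1%, 19.7% to 61.5%). In pEPI it ran from 0.113 to 89.0 FPKM with a median of 21.96 and a mean of 24.5 ± 21.8 (SD, n = 25 cells), and the highest cells were F3 (89.0), B2 (63.2) and E3 (60.0). In pPrE it ran from 0 to 13.6 FPKM with a mean of 1.70 ± 3.09 (SD, n = 23 cells), and A1 (13.6), the cell with the highest Gata3, was the highest. The branches overlapped below 13.6 FPKM, and the pPrE cell was the higher one in 5.91% of pairs. The log2 ratio of pPrE over pEPI was -3.85 (-3.97 to -3.74), the difference of the means was larger than the SD of either branch, and Tfap2c ranked 31 from the lowest of 11193 genes. With Y-linked counts the ratio was -3.67, and without them -3.80. The level in cells without over cells with Y-linked counts differed as well, by a log2 ratio of -1.37 (-1.44 to -1.30), with -0.95 in pEPI and -1.08 in pPrE.

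Taking the 5 trophectoderm regulators together, 42 of 48 cells (87.5%, 74.8% to 95.3%) had at least 1 of them. Most of this was Tfap2c, which was the single regulator in 15 cells, 12 of them pEPI. Without Tfap2c, 27 cells (56.2%, 41.2% to 70.5%) had at least 1 of the other 4, and most of that was Eomes, found alone in 7 cells and with only Tfap2c in 8. Cdx2 or Gata3 was detected in 10 cells (20.8%, 10.5% to 34.99%). The number of regulators per cell was 0 in 6 cells, 1 in 23, 2 in 14 and 3 in 5, and no cell had 4 or 5. All 6 cells with none (B3, B5, C5, D2, D7 and E6) were pPrE. Of the 5 cells with 3 regulators, A1, A5, E7 and E8 had Gata3, Eomes and Tfap2c, and C3 had Eomes, Tfap2a and Tfap2c. At a minimum of 5 FPKM in place of 1, 62.5% of cells had at least 1 of the 5.

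The filament genes were compared between the 10 cells with Cdx2 or Gata3 and the 38 without. The 10 cells were 4 pEPI and 6 pPrE. Y-linked counts were present in the 2 cells with Cdx2 and in 6 of the 8 with Gata3. The comparison was not made within branches or kinds of cells. Krt8 was detected in 10 of 10, with a median of 36.1 FPKM and a range from 6.27 to 91.5, and in 33 of 38, with a median of 19.6 and a range from 0 to 173. Krt19 was detected in 3 of 10 and in 2 of 38 cells, Krt18 in 2 of 10 and in 10 of 38, and Vim in 4 of 10 and in 16 of 38. The ranges overlapped for each gene. The summed level of 22 trophectoderm effector genes ran from 202 to 1231 FPKM (median 649) in the 10 cells and from 114 to 1121 (median 537) in the others. Fabp3, Ly6a and Aqp3 had the highest means among the 22 (188, 92.1 and 61.9 FPKM) and weigh most in this sum.

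Other trophectoderm genes were read from lists of a further 16 regulators and the 22 effectors. Both lists were chosen with earlier results of these data known, and the branches come from the same cells. Their counts beside the share over all genes are therefore a description and not a test. Of the 16 regulators, 9 were above the filter, 2 of them past 2-fold higher in pPrE and 0 lower, beside 5.43% higher and 7.72% lower over all genes tested, with a median log2 ratio of 0.27 against 0.01 over all genes. Fgfr2, a receptor for fibroblast growth factors in trophoblast and primitive endoderm, was detected in 22 of 23 pPrE and 6 of 25 pEPI cells (log2 ratio 3.28), and Msx2, a homeobox factor, had a log2 ratio of 1.37. The TEAD factor Tead4 was detected in 46 cells at a mean of 18.2 FPKM and Klf5, a factor of both trophectoderm and ICM, in 48 at 38.5 FPKM, both within 2-fold between the branches. Dlx3, Esx1 and Ascl2, which act later in trophoblast, had no count in any cell.

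Of the 22 effectors, 16 were above the filter, 9 of them past 2-fold lower in pPrE and 0 higher, beside 7.72% lower and 5.43% higher over all genes tested, and the median log2 ratio was -1.19 against 0.01. Tfap2c was lower in pPrE as well. The claudins Cldn6 and Cldn4, which form tight junctions, had log2 ratios of -4.47 and -3.83. The ratio of Cldn6 rests on few cells. It was detected in 6 pEPI cells and 1 pPrE cell, and reached 90.4 FPKM in C4 against a mean of 4.24. The water and glycerol channel Aqp3 had -3.91, with a mean of 112 FPKM in pEPI and 7.46 in pPrE. Plet1, a surface protein of trophoblast progenitors, had -1.51. Fabp3, a fatty acid binding protein, had the highest level of the list at a mean of 188 FPKM and a log2 ratio of 0.85, and Ly6a, a surface antigen, followed at 92.1 FPKM and -0.29.

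**Figure D4:**
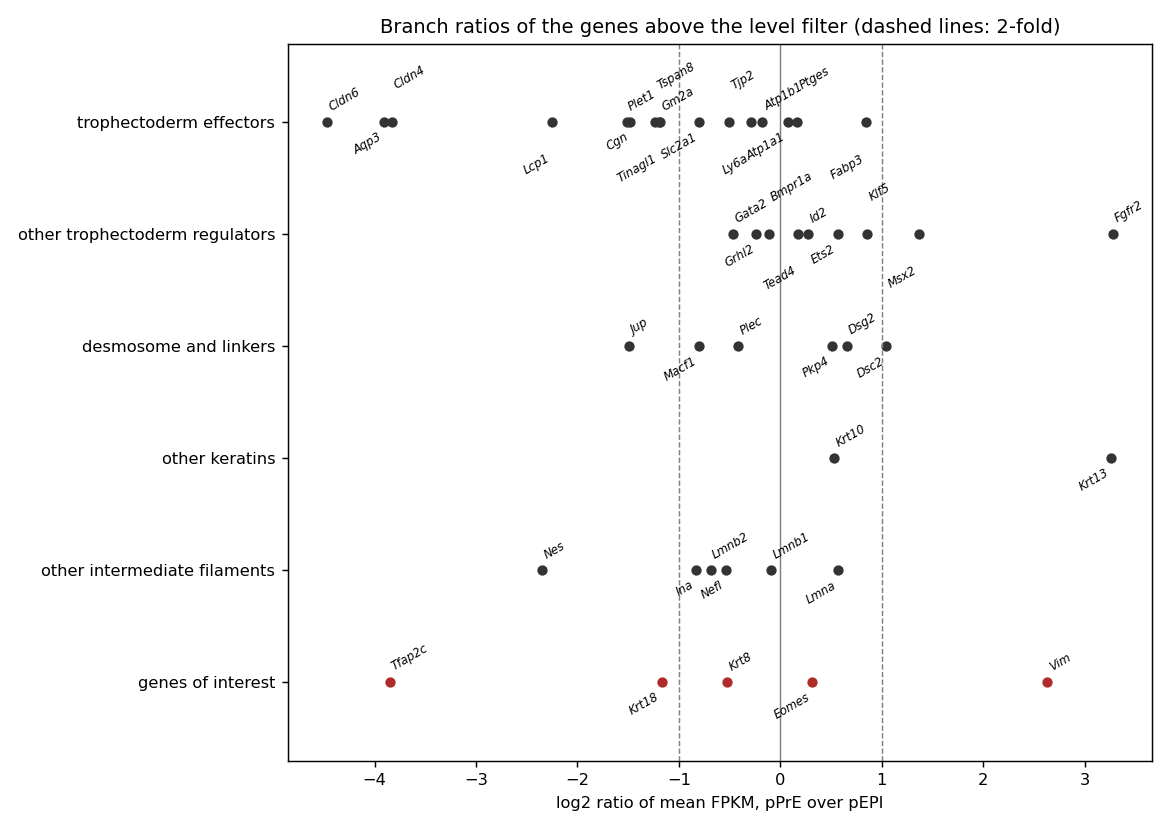
Each point is a gene above the level filter, placed by its log2 ratio of mean FPKM in pPrE over pEPI, with the 10 genes of interest (5 above the filter) in red and the other lists in black. Tfap2c at -3.85 stands near the claudins and Aqp3, Vim at 2.63 is the only filament gene besides Krt13 past 2-fold on the right, and Krt8 and Eomes are between the dashed lines.

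Genes for proteins that work with keratins ranged from detected in most cells to without a count in any. Of 13 genes for desmosomes and linkers in the data, 6 were above the filter, 1 past 2-fold higher in pPrE (Dsc2, a desmosomal cadherin, 1.05) and 1 lower (Jup, plakoglobin, -1.49), with a median of 0.05. Dsg2, another desmosomal cadherin, was detected in 45 cells and Jup in 46. Desmoplakin (Dsp), which ties keratins to desmosomes and is named here after its values were seen, was detected in 6 cells, all without Y-linked counts. Of 28 other keratins, 23 had no count in any cell. Above the filter were 2, Krt10 with a log2 ratio of 0.53 and Krt13 with 3.26. The ratio of Krt13 rests on few cells, since it was detected in 8 and reached 54.2 FPKM in D8 against a mean of 2.45. Of 12 other intermediate filament genes, 6 were above the filter and 1, the neural filament gene Nes, was past 2-fold lower in pPrE at -2.35. The nuclear lamins Lmnb1 and Lmna were detected in 48 and 47 cells at means of 20.9 and 15.6 FPKM, and both were within 2-fold.

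The genes most like each gene over the 48 cells were named by Spearman's rho of log2(FPKM + 1) among 8928 or 8929 genes with a mean above 1, as a description of cells that share libraries, depth and branch. For Krt8 they were Arl6 (0.59), Tmbim6 (0.56), Setd4 (0.55), Amz2 (0.52) and Pum3 (0.49), of which none was past 2-fold between the branches. For Vim they included Mtcl1 (0.69), Ckap4 (0.69), Tfpi (0.68) and Amn (0.66), these 4 all higher in pPrE with log2 ratios from 1.21 to 4.04 and all higher in cells without Y-linked counts. For Tfap2c they were Tmem41b (0.85), Gm6223 (0.82), Crxos (0.74), Smagp (0.74) and Sfn (0.74), all lower in pPrE with log2 ratios from -2.36 to -1.05. For the sparse genes the values were lower and rest on few cells, with Gm42467 (0.56), Zfp600 (0.52), Mtpap (0.47), Oxld1 (0.46) and Cln3 (0.45) for Krt18, and Enpep (0.50), Spcs1 (0.47), Nab1 (0.47), Dtymk (0.46) and Snord17 (0.45) for Krt19.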

How the data were processed

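The authors aligned Smart-seq2 reads to mm10 and counted them per Ensembl 87 gene with htseq-count; HTSeq and STAR are named in the submitters' processing notes, with no versions. The deposited values are raw counts of 49671 genes in 48 cells, without normalization. The authors left out libraries under 500000 mapped reads or with reads skewed along genes.

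FPKM was computed from exon-union lengths of GENCODE M21 (GRCm38) and median-of-ratios library sizes. Branches were read by eye from the study's dendrogram. Named genes were the 10 genes of interest, from each list the 4 of highest mean and 3 of largest log2 ratio (mean of 1 FPKM or more), the 5 most alike genes, branch markers and copies; 1 gene named by this rule is not reported here. The genes and lists were chosen with earlier results of these data known. Shares have exact binomial (Clopper-Pearson) 95% intervals. The branch ratio was tried on simulated counts with known ratios, for genes with a mean log2(FPKM + 1) above 1. That leaves out Krt18 and the sparser genes of interest, and the simulation held no differences between embryos or wells. Alternatives were library size, cell average, filter, fold, detection minimum, thinning, and leaving out well letters, top cells or kinds of cells. Copies were found with blastn 2.17.0. Versions were matplotlib 3.10.9, scipy 1.17.1, pandas 2.3.3, numpy 2.4.6 and Python 3.11.15.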

Additional observations from a re-analysis of the deposited data

How the results depend on the processing

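Of 10 genes, 5 were above the level filter and 3 of them were past 2-fold between the branches, beside 13.2% of all 11193 genes above it. This count became 1 by the median over cells, where Krt18 and Vim gave no ratio because their pEPI median was 0. It became 5 without well letter C and 7 with no filter beyond 1 count, and was 2 to 4 under the other 12 alternatives run. The share over all genes is not given for these alternatives. The share of cells with at least 1 of the 5 regulators was 87.5%, and 62.5% at a minimum of 5 FPKM, where fewer cells reach the minimum. The share with Krt8 and Krt18 was 22.9% and ran from 14.6% to 27.1% over all alternatives run. The log2 ratio of Krt18 turned from -1.17 to 0.96 in cells without Y-linked counts only; the cause was not tested. The log2 ratio of Tfap2c kept its sign throughout (-8.56 to -3.17), as did that of Vim (1.47 to 4.60), whereas those of Krt8 (-1.05 to 0.89) and Eomes (-0.56 to 1.17) took both signs. No paired analysis was possible because the labels give 1 group and no replicate numbers shared between groups. With 3 embryos that are not told apart, differences between embryos could not be separated from differences between branches or wells. Genes under 1 FPKM may have been missed by the capture of RNA from single cells, which depth does not measure.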
